A study of Homo sapiens with 21 samples.

Results

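The genes described here encode lysosomal enzymes, lysosomal membrane proteins, the vacuolar proton pump, the TFEB family of transcription factors and the autophagy machinery. They are 42 genes listed by name, by a rule that uses no measured value but was written with earlier results of these data known, and all 42 had a row among the 16553 genes of the deposited table. Counts were available for AU565, a breast cancer line with amplified ERBB2, in 21 libraries of total RNA that form 7 groups of 3. All groups are labelled wild type, and the agent named is trastuzumab, an antibody that binds HER2, the receptor encoded by ERBB2. Untreated monolayers and untreated aggregates received no antibody, the aggregates having grown for 96 h in a liquid overlay with 5% matrigel. Acutely exposed monolayers received 20 µg/ml trastuzumab for 24 h. Primed monolayers received the same exposure and were then incubated for 96 h, and primed aggregates were exposed for 24 h as monolayers and then grown for 96 h as aggregates. Treated aggregates grew for 96 h and then received 50 µg/ml for 24 h. The last group, primed and treated aggregates, had both exposures, so both treated groups were 24 h older than the other aggregates. All samples are of this 1 line, and the labels leave unsaid whether replicates are separate cultures, so p-values reflect spread among these samples that may be technical.

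Lysosomes break down proteins, glycans and lipids with acid hydrolases, and the vacuolar proton pump keeps their lumen acidic. Macroautophagy brings cytosolic cargo to them. The ULK1 kinase and the BECN1 complex start a membrane, WIPI proteins and the ATG5, ATG7 and ATG16L1 conjugation system couple ATG8 proteins such as LC3 to it, receptors such as SQSTM1 load cargo, and the vesicle fuses with the lysosome. TFEB and TFE3 enter the nucleus when nutrient signalling through mTORC1 falls and bind E-box motifs of the CLEAR type in many lysosomal promoters. HER2 signals to mTORC1 through PI3K and AKT, and the receptor itself is degraded in lysosomes after it is internalised. Transcript levels report neither the activity of the enzymes nor autophagic flux.

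Promoter windows are shown for the 5 members whose window holds the longer, CLEAR-like form of that motif, since TFEB and TFE3 are known to bind it. Of the 42 members 32 had an entry in the RefSeq promoter table (GRCh38.p14), with 46 windows of 300 bases, from 250 before to 50 after a transcription start. The E-box core CACGTG was found in 8 of 46 windows (17.4%), against 9.08% of the 18145 windows of all genes in the deposited table. The longer TCACGTGA, which contains the core, was found in 5 windows (10.9%) against 1.47%. In 175 windows of other lysosomal and autophagy genes the shares were 18.3% for the core and 8.57% for the longer form. Both motifs read the same on either strand. The stretches below lie at chr20:45891273-45891334 on the plus strand for CTSA, chr17:80101485-80101575 on the plus strand for GAA, chr13:113297027-113297236 on the plus strand for LAMP1, chr19:7522563-7522623 on the plus strand for MCOLN1 and chr16:67481191-67481236 on the minus strand for ATP6V0D1. They run 5′ to 3′ along the gene, and capitals mark the core.
CTSA: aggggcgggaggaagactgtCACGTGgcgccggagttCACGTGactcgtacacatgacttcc
GAA: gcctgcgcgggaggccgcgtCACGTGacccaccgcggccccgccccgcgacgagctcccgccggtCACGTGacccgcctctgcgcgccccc
LAMP1: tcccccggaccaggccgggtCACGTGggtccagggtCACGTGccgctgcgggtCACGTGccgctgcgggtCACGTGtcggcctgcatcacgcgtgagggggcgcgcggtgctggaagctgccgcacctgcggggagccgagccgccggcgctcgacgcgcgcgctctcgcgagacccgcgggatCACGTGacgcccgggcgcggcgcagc
MCOLN1: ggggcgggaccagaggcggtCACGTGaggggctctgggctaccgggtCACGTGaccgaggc
ATP6V0D1: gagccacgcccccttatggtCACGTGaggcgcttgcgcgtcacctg
CTSA, GAA and MCOLN1 each hold 2 cores. The LAMP1 window holds 6, of which 5 are printed and the other spans the transcription start. CTSD, NEU1 and CD63 held the core without the longer form, CD63 in the window of 1 of its starts. A match is a description of these letters and not a binding site. These 5 genes did not change in the same direction. From untreated monolayers to untreated aggregates the log2 fold change was −1.13 for CTSA, −0.56 for LAMP1, −1.51 for MCOLN1 and −0.49 for ATP6V0D1, and 1.46 for GAA.

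**Figure D1:**
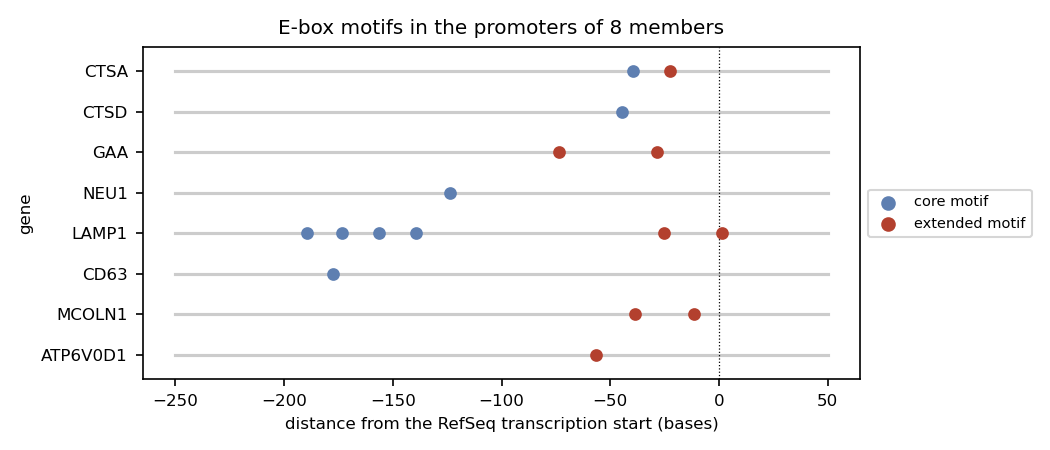
Position of E-box motifs in the 300-base promoter windows of the 8 members that hold one, in bases from the RefSeq transcription start (dotted line). Blue points are the core motif and red points the extended motif; LAMP1 holds 6, and 5 of the 8 genes hold the extended form.

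Levels below are CPM, counts scaled to a common library size with TMM factors, listed in the order of replicates 1 to 3 or as mean ± SD (n = 3). Changes are log2 fold changes with a standard error (SE) from edgeR's quasi-likelihood fit to all 7 groups, and a gene rose or fell where its Benjamini-Hochberg adjusted p over 15969 tested genes was under 0.05. CPM is not corrected for gene length, so levels are compared between groups and not between genes. Total counts were 15005070 to 26921113 per library, and the 42 genes took 0.97% to 1.36% of them. TFEC, a TFEB relative, did not pass the filter on low counts, so 41 members were tested. The 7 markers of the luminal epithelium had a row and summed to at least 12400 CPM in every group, but CDH1, the E-cadherin gene, was close to absent at group means of 0.153 to 2.18 CPM. Of 10 macrophage and leukocyte markers 4 had a row, with a summed level of 44.2 to 77.3 CPM over all libraries, lowest in primed monolayers. Summed melanocyte markers (8 of 9 in the table) were at 17.9 to 120 CPM in 12 libraries, which are the untreated monolayers, the acutely exposed monolayers, the untreated aggregates and the primed aggregates, and at 1.77 to 4.53 CPM in the other 9. Summed kidney markers (9 of 9) were at 0.562 to 1.55 CPM in those 12 and at 7.84 to 43.5 CPM in the 9. Within the 12, primed aggregates had 59.2 to 99.5 CPM of the melanocyte markers and untreated aggregates 17.9 to 24.9. Summed brain markers (7 of 8) did not follow these sets. They were at 27.4 to 31.7 CPM in untreated, 22 to 23 in acutely exposed and 15.9 to 18.3 in primed monolayers. Aggregates had 7.45 to 10.9 CPM untreated, 11.1 to 16.6 primed, 37.2 to 44.6 treated and 32.7 to 43 primed and treated. For comparisons between the sets of 12 and 9 libraries, treatment and set cannot be told apart. They are primed with untreated monolayers, both treated groups with untreated aggregates, and primed and treated with primed aggregates. The difference of priming responses, tested below, also spans both sets. Primed monolayers also had the 96 h of incubation, which is listed for no untreated monolayer. Exposure and culture time cannot be told apart in them either. The share of mitochondrial rRNA was 0.793% to 1.14% for monolayers. For aggregates it was 2.5% to 2.77% where no late dose was given, 1.52% to 1.71% with the late dose and 2.13% to 2.36% with both doses. The part of other-tissue transcripts and of this share in the results was not tested. In bulk RNA, fewer cells of a type and less RNA per cell cannot be told apart.

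Untreated aggregates differed from untreated monolayers in 33 of the 41 tested members. In this comparison, called 3D below, 13 members rose and 20 fell, where 32.9% of all tested genes rose and 31.1% fell. The other 8 members did not pass. The aggregates had 96 h of culture with 5% matrigel that is not listed for the monolayers. Growth form, culture time and matrigel therefore cannot be told apart. Proton pump genes fell most uniformly, 7 of 8, and 4 of 7 members grouped under glycan and lipid breakdown rose (GAA, GLB1, NEU1 and PSAP). Fewer of the 33 passed without 6 libraries that carried striated muscle transcripts (below), and fewer of all genes rose or fell too. The calls of NEU1, CTSL, TPP1, ATP6V1B2, BECN1, UVRAG and ATG5 ended in that fit, which holds fewer libraries of both groups. With all libraries, the median change of the members was −0.0944 on the log2 scale against 0.0105 for all genes. After priming alone, aggregates had 8 members higher and 5 lower than untreated aggregates, where 11.5% of all genes rose and 9.66% fell (median 0.0386 against −0.000195). The primed and treated aggregates differed from the primed monolayers in 35 members, 25 higher and 10 lower, where 31.9% of all genes were higher and 32.1% lower (median 0.202 against 0.0186).

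Acute exposure of monolayers raised 12 members and lowered 5, where 11.3% of all genes rose and 8.91% fell (median 0.0942 against −0.0175). The rises were in 4 of 6 proteases, GRN and PSAP, CD63, WIPI1, WIPI2, ATG9A, ATG16L1 and SQSTM1. The falls were in TPP1, GLA, SCARB2, ATP6V1A and ATG5. The cardiac myosin MYH7 exceeded 10 CPM in 6 libraries. Without these 6 (untreated monolayers 1 and 2, acutely exposed monolayers 2 and 3, untreated aggregates 1 and 2) the acute comparison has 1 library on each side. In edgeR the rises of CTSL and CD63 remained, and the other rises and the falls ended. The falls were not called by limma voom or DESeq2 on the same libraries either. Fewer of all genes were called in that fit as well. That alternative was chosen after the data were seen, and the 1 library left is assumed to vary like the other groups. In primed monolayers 9 members were higher and 22 lower than in untreated ones, where 33.7% of all genes were higher and 31.6% lower (median −0.192 against 0.00882). Fewer of these 9 remained higher without the 6 libraries, and fewer of all genes passed as higher too.

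Late treatment of aggregates was accompanied by 17 rises and 3 falls against untreated aggregates, where 18.8% of all genes rose and 17.9% fell (median 0.104 against 0.000829). Aggregates both primed and treated had 15 members higher and 2 lower than untreated ones, where 17.6% of all genes were higher and 17.9% lower (median 0.0749 against −0.00211). Without the 6 libraries with MYH7, 1 untreated aggregate library is left. In that fit fewer members were higher in both of these comparisons, and fewer of all genes were too. Against primed aggregates, primed and treated ones had 13 higher and 5 lower, where 14.9% of all genes were higher and 14.8% lower (median 0.062 against −0.00219). Against treated aggregates 1 member was higher and 8 lower, where 3.18% of all genes were higher and 4.8% lower (median −0.0131 against 0.000938). Several of these comparisons share their control libraries.

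**Figure D2:**
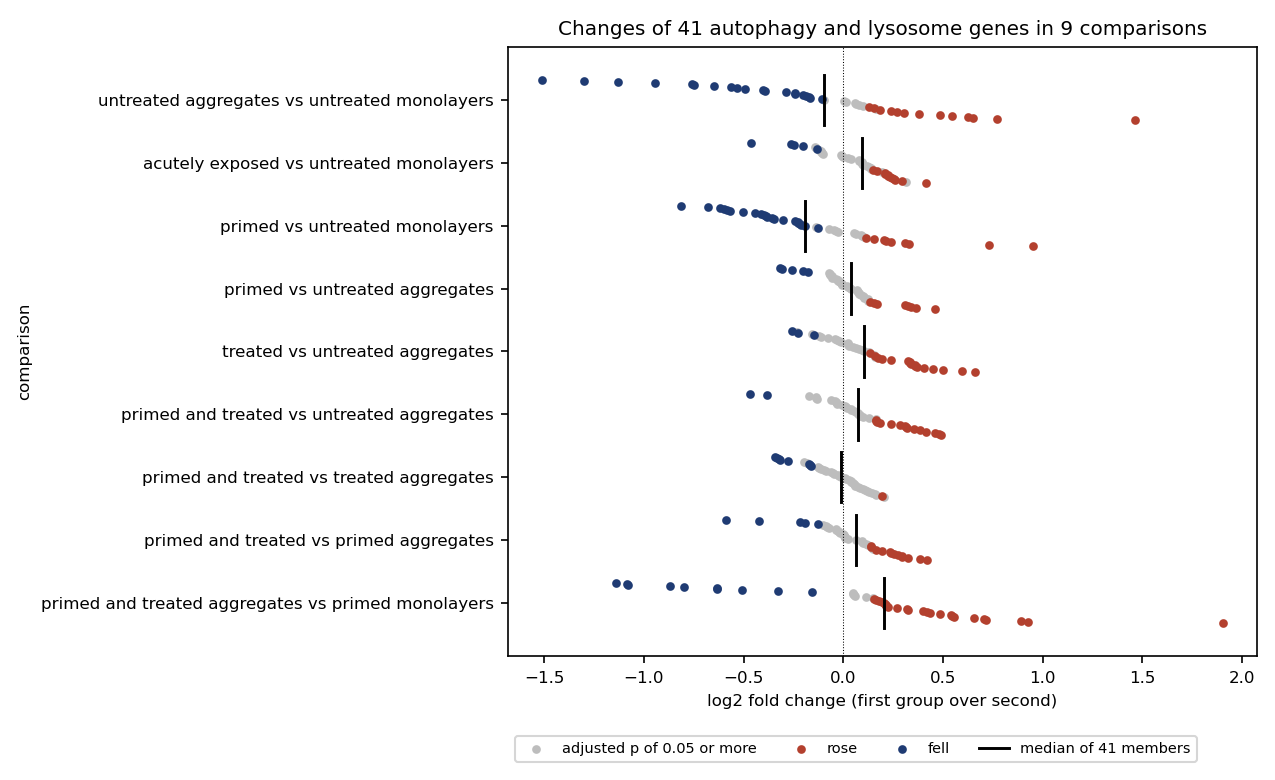
Log2 fold changes of the 41 tested members in 9 comparisons (x axis; first group over second), each point a gene, coloured by whether it rose, fell or did not pass (edgeR adjusted p), with the median as a bar. The points spread widest, from −1.51 to 1.46, between untreated aggregates and untreated monolayers and, up to 1.90, between primed and treated aggregates and primed monolayers.

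**Figure D3:**
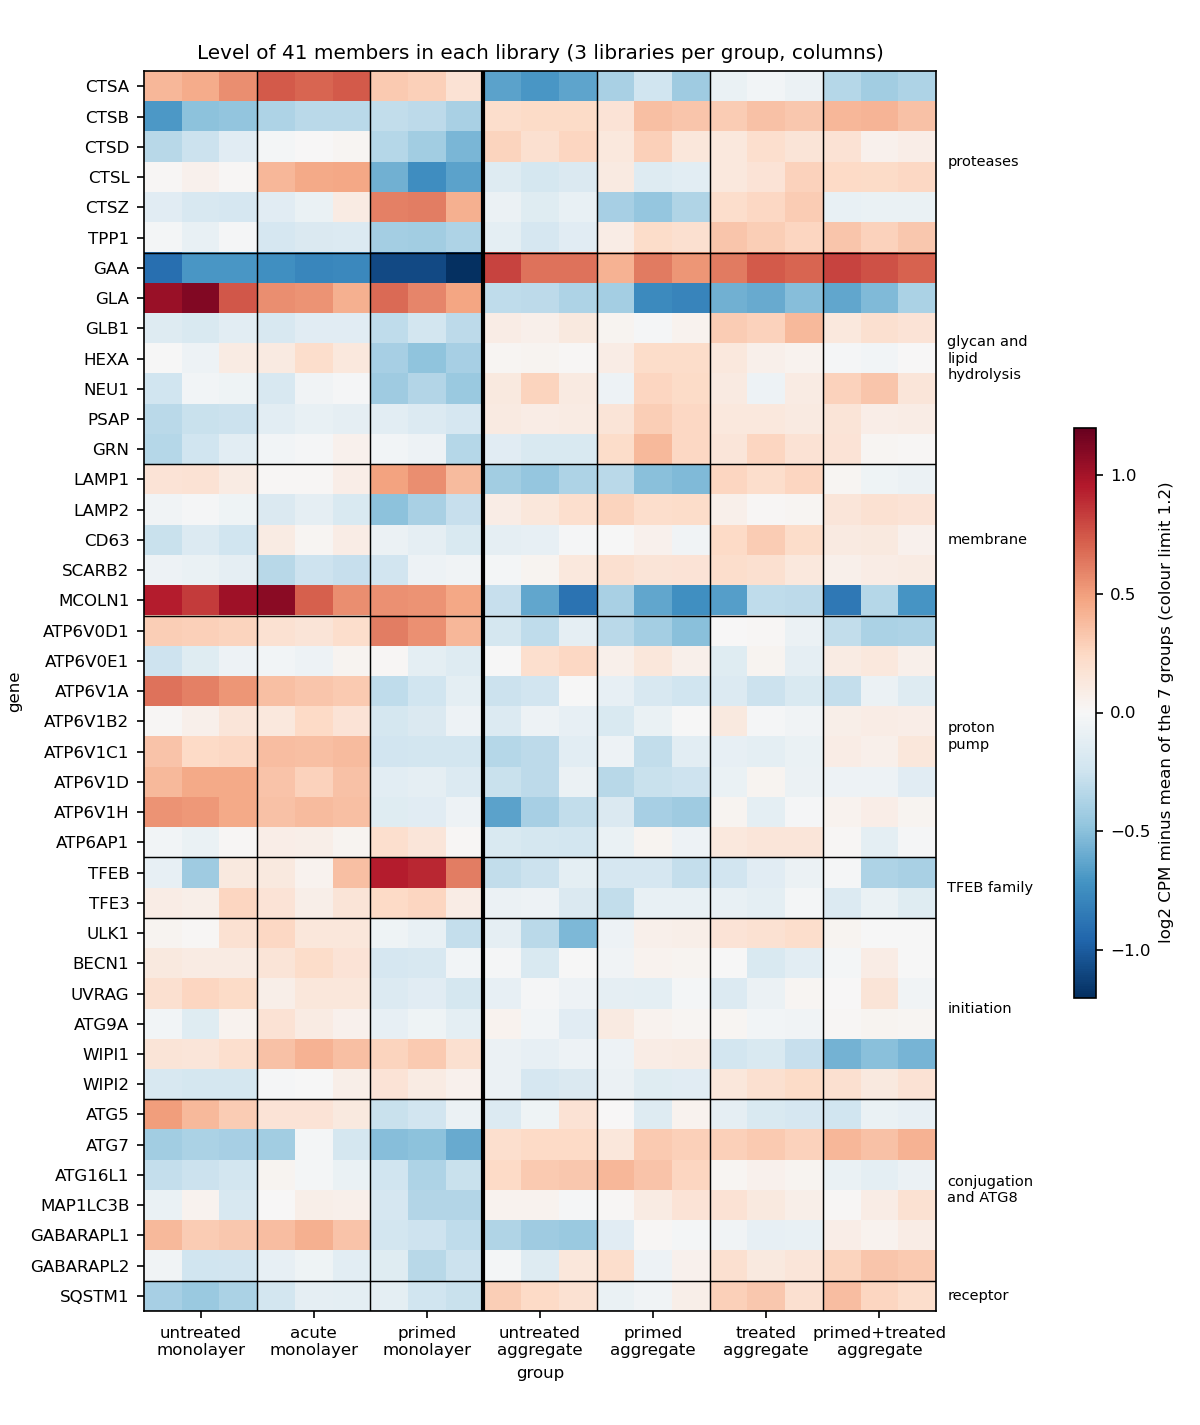
Level of each tested member (rows, by role) in each of the 21 libraries (columns, 3 per group), as log2 CPM minus the mean of the 7 group means; red is higher and blue lower, and colours saturate at 1.2. GAA is blue in all 9 monolayer libraries and red in all 12 aggregate libraries, and the opposite holds for GLA and MCOLN1.

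Among the lysosomal proteases, CTSA and TPP1 changed in the most comparisons. Positions given with each gene are on GRCh38.p14, from RefSeq. CTSA (Entrez 5476, chromosome 20, 45891335 to 45898820) encodes cathepsin A, a carboxypeptidase that also protects the galactosidase GLB1 and the sialidase NEU1. It was at 553, 570.1 and 617 CPM in untreated monolayers, 697, 681 and 697 in acutely exposed ones and 521, 509 and 471 in primed ones. In aggregates it was at 268, 258 and 269.7 untreated, 320.2, 354 and 311 primed, 396, 408 and 399 treated and 330.2, 313 and 324 primed and treated. All 9 monolayer libraries were above all 12 aggregate libraries, untreated aggregates were lowest, and each of the other aggregate groups lay above them without overlap. The fall in 3D was the largest change of the gene (log2 −1.13, SE 0.052, edgeR adjusted p = 2.13e-19). Treated aggregates were 1.51 times the untreated level (log2 0.60, SE 0.052, edgeR adjusted p = 5.16e-11). Primed aggregates were also higher than untreated ones (log2 0.31, SE 0.052, edgeR adjusted p = 4.23e-05), and primed and treated aggregates were lower than treated ones (log2 −0.31, SE 0.051, edgeR adjusted p = 7.45e-05). CTSA exons overlap NEURL2 on the opposite strand over 17.7% of their bases and PLTP over 3.42% (GENCODE 29), and whether the counting used strand is not given in the sources used here. In all, 18 of the 42 members overlap exons of another gene on either strand, so their counts can hold reads of a neighbour. ATG9A shares 38.8% of its exon bases with a gene on the same strand.

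TPP1 (Entrez 1200, chromosome 11, 6612768 to 6619422), tripeptidyl peptidase 1, cuts tripeptides from protein ends and is the gene of a childhood neuronal storage disease. Its levels were 161, 154 and 163 CPM in untreated, 143, 146 and 147 in acutely exposed and 124, 123 and 127 in primed monolayers. Aggregates had 151, 143 and 149 untreated, 175, 191 and 188 primed, 207, 202 and 197 treated and 206, 198 and 205 primed and treated. The 9 libraries of aggregates that had seen antibody were above every monolayer library and every untreated aggregate, and primed monolayers were below all others. TPP1 rose with priming (log2 0.32, SE 0.047, edgeR adjusted p = 5.68e-06) and in treated aggregates (log2 0.45, SE 0.047, edgeR adjusted p = 2.59e-09), and it was lower in primed than in untreated monolayers (log2 −0.36, SE 0.048, edgeR adjusted p = 7.25e-08). Its small differences between untreated cultures (log2 −0.11, SE 0.047, edgeR adjusted p = 0.044) and with acute exposure (log2 −0.13, SE 0.047, edgeR adjusted p = 0.0416) did not hold. The first was lost without any 1 of 4 of the 6 libraries (edgeR adjusted p up to 0.191) and the second without any 1 of 5 of the 6 libraries (edgeR adjusted p up to 0.126). With the replicate number as a block, the first was also lost (edgeR adjusted p = 0.05003).

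The other cathepsins went separate ways. CTSB, a cysteine protease, averaged 110.2 ± 9.01 CPM in untreated monolayers and 188 ± 0.84 in untreated aggregates (log2 0.77, SE 0.055, edgeR adjusted p = 2.34e-14). CTSD, the main aspartic protease of lysosomes, rose from 4215 ± 293 to 5893 ± 181 CPM between the same groups (log2 0.48, SE 0.057, edgeR adjusted p = 3.7e-09), and 41.7% of its exon bases are shared with a readthrough gene on the same strand. It was lower in primed monolayers, at 3689.9 ± 261 (log2 −0.19, SE 0.057, edgeR adjusted p = 0.00351). CTSL, another cysteine protease, was raised by acute exposure from 183 ± 3.01 to 244 ± 5.65 CPM (log2 0.42, SE 0.056, edgeR adjusted p = 6.74e-07) and was lowest in primed monolayers at 114 ± 6.63 (log2 −0.68, SE 0.058, edgeR adjusted p = 2.5e-12). In treated aggregates it was at 205 ± 11.6 against 159 ± 3.33 untreated (log2 0.37, SE 0.056, edgeR adjusted p = 2.95e-06). CTSZ, a carboxypeptidase, was highest in primed monolayers, with 174 ± 12.2 CPM where untreated ones had 105 ± 2.67 (log2 0.73, SE 0.057, edgeR adjusted p = 2.24e-13). In aggregates it was lower with priming (log2 −0.31, SE 0.058, edgeR adjusted p = 0.000189) and also lower in primed and treated than in treated libraries (log2 −0.34, SE 0.056, edgeR adjusted p = 7.45e-05). CTSL and CTSZ kept these calls in every alternative tried.

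The 7 members grouped under glycan and lipid breakdown include GRN, which is not itself such an enzyme. Of the 7, GRN changed in the most comparisons, 7, and GAA, GLB1 and PSAP in 6 each, of which GAA had the largest change. GRN (Entrez 2896, chromosome 17, 44345302 to 44353106) encodes progranulin, a secreted protein that is taken to lysosomes and cut into granulins. Its levels were 126, 136 and 147 CPM in untreated, 157, 158 and 166 in acutely exposed and 157, 154 and 127 in primed monolayers. In aggregates they were 146, 141 and 141 untreated, 187, 209.8 and 191 primed, 177, 192 and 181 treated and 180.1, 163 and 162 primed and treated. Untreated monolayers and untreated aggregates overlapped, and all primed aggregates were above both. Priming raised it (log2 0.46, SE 0.065, edgeR adjusted p = 4.22e-06), as did acute exposure (log2 0.23, SE 0.065, edgeR adjusted p = 0.00882), and treated aggregates were above untreated ones (log2 0.36, SE 0.065, edgeR adjusted p = 4.63e-05). The acute call ended without untreated monolayer 1 (0.18, edgeR adjusted p = 0.0809) or acutely exposed monolayer 3 (0.20, edgeR adjusted p = 0.0613). Primed and treated aggregates were below primed ones (log2 −0.22, SE 0.064, edgeR adjusted p = 0.00937), a call that ended without primed aggregate 2 (−0.17, edgeR adjusted p = 0.0774).

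GAA (Entrez 2548, chromosome 17, 80101581 to 80119881), the acid glucosidase that clears glycogen from lysosomes, had the widest range of the tested members, with a ratio of 3.74 between its highest and lowest group means. It was at 56.5, 65.2 and 65.2 CPM in untreated, 63.3, 61.5 and 61.6 in acutely exposed and 49.9, 49.9 and 43.6 in primed monolayers. Aggregates had 185, 166 and 166 untreated, 141, 163 and 153 primed, 163, 176 and 171 treated and 185, 179 and 173 primed and treated. Every aggregate library was far above every monolayer library. GAA rose 2.76-fold in untreated aggregates (log2 1.46, SE 0.063, edgeR adjusted p = 3.22e-20), and primed and treated aggregates were 3.74 times the primed monolayers (log2 1.90, SE 0.066, edgeR adjusted p = 4.41e-23). Primed monolayers were below untreated ones (log2 −0.38, SE 0.068, edgeR adjusted p = 7.47e-06). The fall with priming in aggregates (log2 −0.18, SE 0.06, edgeR adjusted p = 0.032) ended without any 1 of 3 of the 6 libraries (edgeR adjusted p up to 0.179). That fall also ended without the 6 libraries with MYH7.

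GLA, the alpha-galactosidase of globotriaosylceramide, ran opposite to GAA, at 32.3 ± 4.2 CPM in untreated monolayers and 13.1 ± 0.293 in untreated aggregates (log2 −1.30, SE 0.099, edgeR adjusted p = 1.43e-13). Acutely exposed monolayers had 23.5 ± 1.11 CPM (log2 −0.46, SE 0.092, edgeR adjusted p = 0.000311), a fall that ended without the 6 libraries with MYH7 (−0.19, edgeR adjusted p = 0.618). GLB1, the lysosomal beta-galactosidase, was higher in untreated aggregates (0.24) and highest in treated ones, with 158 ± 6.73 CPM where untreated ones had 134 ± 2.6 (log2 0.24, SE 0.047, edgeR adjusted p = 0.000144). HEXA, a subunit of beta-hexosaminidase, was at 82.2 ± 2.69 CPM in primed monolayers against 112 ± 6.31 in untreated ones (log2 −0.44, SE 0.053, edgeR adjusted p = 6.94e-09) and did not pass between the untreated cultures (0.014, edgeR adjusted p = 0.835). PSAP, the precursor of the saposins that activate sphingolipid hydrolases, rose in untreated aggregates to 1989 ± 17.3 from 1530.3 ± 35.8 CPM (log2 0.38, SE 0.046, edgeR adjusted p = 6.54e-09). NEU1, the lysosomal sialidase, had 7.34 ± 0.574 and 8.88 ± 0.582 CPM in the same groups, and its rise (0.27) ended without any 1 of 5 of the 6 libraries (edgeR adjusted p up to 0.177). Its level was higher in primed and treated aggregates than in primed monolayers (log2 0.66, SE 0.12, edgeR adjusted p = 1.87e-05).

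LAMP1 (Entrez 3916, chromosome 13, 113297239 to 113323672) is a main glycoprotein of the lysosomal membrane. It was at 281, 283 and 269 CPM in untreated, 254, 254 and 265 in acutely exposed and 351, 370.0 and 327 in primed monolayers. Aggregates had 188, 182 and 194 untreated, 200.1, 177 and 174 primed, 300.3, 291 and 299.6 treated and 254, 243 and 239 primed and treated. Primed monolayers were highest, and untreated and primed aggregates overlapped at the bottom, below all other groups. LAMP1 fell in 3D (log2 −0.56, SE 0.053, edgeR adjusted p = 2.51e-11) and was 1.58 times as high in treated as in untreated aggregates (log2 0.66, SE 0.053, edgeR adjusted p = 7.06e-12). Primed and treated aggregates stood between, above primed (log2 0.42, SE 0.053, edgeR adjusted p = 2.29e-07) and below treated ones (log2 −0.28, SE 0.052, edgeR adjusted p = 0.000491). Primed monolayers were above untreated ones (log2 0.33, SE 0.052, edgeR adjusted p = 1.36e-06). These calls held in every alternative tried.

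CD63 (Entrez 967, chromosome 12, 55723535 to 55730041), a tetraspanin of lysosomes and secreted vesicles, was at 468, 501 and 475 CPM in untreated, 602, 572 and 596 in acutely exposed and 536, 519.8 and 494 in primed monolayers. In aggregates the levels were 522, 526 and 556 untreated, 559, 581 and 547 primed, 663, 696 and 653 treated and 607, 609 and 583 primed and treated. Acutely exposed monolayers were above all other monolayers, and treated aggregates were above every other library. It rose with acute exposure (log2 0.29, SE 0.048, edgeR adjusted p = 1.7e-05) and in treated aggregates (log2 0.33, SE 0.048, edgeR adjusted p = 1.5e-06), both in every alternative tried. Its lower level in primed and treated than in treated aggregates (log2 −0.16, SE 0.047, edgeR adjusted p = 0.0288) ended without any 1 of 5 of the 6 libraries (edgeR adjusted p up to 0.159).

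LAMP2, the second major LAMP protein and the lysosomal receptor of chaperone-mediated autophagy, moved opposite to LAMP1 in 3D, from 232 ± 2.63 to 263 ± 10.3 CPM (log2 0.18, SE 0.049, edgeR adjusted p = 0.00153), and in primed monolayers, where it was at 182 ± 13.8 (log2 −0.35, SE 0.049, edgeR adjusted p = 1.96e-07). SCARB2, a transmembrane protein of lysosomes, fell with acute exposure from 245 ± 4.6 to 213 ± 6.38 CPM (log2 −0.20, SE 0.05, edgeR adjusted p = 0.0031), a call that ended without the same 6 libraries (−0.22, edgeR adjusted p = 0.175). MCOLN1, the calcium channel through which lysosomes activate TFEB, was the member that fell furthest in 3D, to 8.13 ± 1.74 from 23.2 ± 1.43 CPM (log2 −1.51, SE 0.14, edgeR adjusted p = 2.25e-10). Within aggregates its group means were 7.89 to 9.07 CPM and none of the 5 comparisons between aggregate groups passed. Primed monolayers had 17.4 ± 0.537 CPM (log2 −0.41, SE 0.13, edgeR adjusted p = 0.00787).

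**Figure D4:**
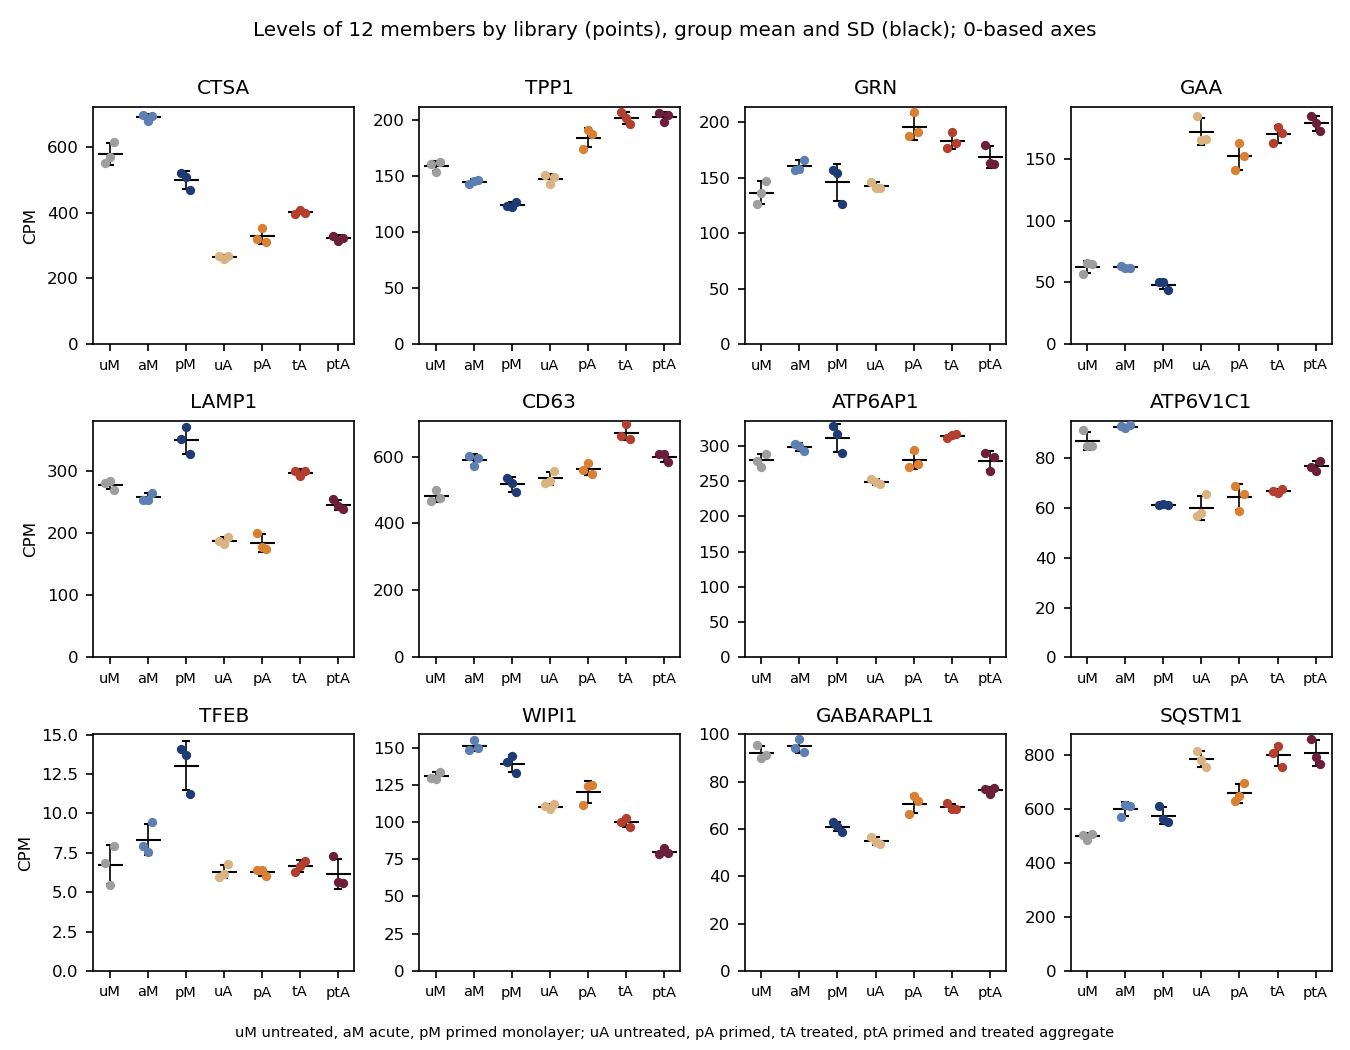
CPM of 12 members in each library (points, 3 per group), with group mean and SD in black and axes from 0; groups are untreated (uM), acutely exposed (aM) and primed (pM) monolayers and untreated (uA), primed (pA), treated (tA) and primed and treated (ptA) aggregates. GAA separates monolayers (at most 65.2 CPM) from aggregates (at least 141), and TFEB is highest in the 3 primed monolayers (at least 11.3 CPM).

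The proton pump joins a membrane sector (V0) to a cytosolic sector (V1) that hydrolyses ATP. In untreated aggregates 7 of 8 members fell and 1, ATP6V0E1, rose, where 31.1% of all genes fell and 32.9% rose. In treated aggregates 5 rose and 1 fell, where 18.8% of all genes rose and 17.9% fell. Without the 6 libraries with MYH7 the rise of ATP6AP1 remained and those of ATP6V0D1, ATP6V1C1, ATP6V1D and ATP6V1H did not pass. ATP6AP1 (Entrez 537, chromosome X, 154428677 to 154436516), an accessory subunit needed to assemble V0, was at 279, 270.2 and 289 CPM in untreated, 302, 300.3 and 292 in acutely exposed and 328, 316 and 289 in primed monolayers. Aggregates had 253, 248 and 245 untreated, 270.5, 293 and 274 primed, 312, 316 and 316 treated and 289, 264 and 284 primed and treated. Untreated aggregates were below all other libraries, and treated aggregates were the highest of the aggregates. It fell in 3D (log2 −0.17, SE 0.05, edgeR adjusted p = 0.00396) and was higher in treated aggregates (log2 0.34, SE 0.05, edgeR adjusted p = 1.76e-06). The rise with priming (log2 0.17, SE 0.05, edgeR adjusted p = 0.0146) ended without untreated aggregate 2 (0.16, edgeR adjusted p = 0.0538) or primed aggregate 2 (0.13, edgeR adjusted p = 0.117). That rise also ended without the 6 libraries with MYH7. Its lower level in primed and treated than in treated aggregates (log2 −0.17, SE 0.05, edgeR adjusted p = 0.0253) ended without any 1 of 4 of the 6 libraries (edgeR adjusted p up to 0.212).

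ATP6V1C1 (Entrez 528, chromosome 8), the C subunit that controls V1 docking, had 91.3, 84.9 and 85.1 CPM in untreated, 92.9, 92.3 and 93.3 in acutely exposed and 61.2, 61.6 and 61.5 in primed monolayers. In aggregates it had 56.7, 57.9 and 65.6 untreated, 68.8, 58.7 and 65.9 primed, 67.1, 66.1 and 67.9 treated and 76.4, 75 and 79 primed and treated. The 6 untreated and acutely exposed monolayers were above all other libraries, and primed and treated aggregates were above the other aggregates. It fell in 3D (log2 −0.53, SE 0.059, edgeR adjusted p = 9.83e-10) and in primed monolayers (log2 −0.50, SE 0.059, edgeR adjusted p = 4.69e-09). Primed and treated aggregates were above untreated ones (log2 0.35, SE 0.059, edgeR adjusted p = 1.32e-05). It was also the 1 member higher in primed and treated than in treated aggregates (log2 0.20, SE 0.058, edgeR adjusted p = 0.0289), a call that ended without any 1 of 6 of the 6 libraries (edgeR adjusted p up to 0.104).

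Among the V1 subunits, ATP6V1A, the catalytic subunit, went from 152 ± 6.4 to 89.9 ± 8.71 CPM in 3D (log2 −0.76, SE 0.063, edgeR adjusted p = 1.19e-12) and to 86.3 ± 5.65 in primed monolayers (log2 −0.81, SE 0.063, edgeR adjusted p = 2.55e-13). Its 4 aggregate groups averaged 87.3 to 89.9 CPM, with no call among them. ATP6V1H, which couples V1 to V0, fell from 71.4 ± 2.26 to 37.1 ± 4.46 CPM in 3D (log2 −0.94, SE 0.07, edgeR adjusted p = 7.42e-14) and reached 52.1 ± 0.874 in primed and treated aggregates (log2 0.49, SE 0.071, edgeR adjusted p = 1.52e-06). ATP6V1D, a subunit of the central stalk, fell in 3D (log2 −0.65, SE 0.059, edgeR adjusted p = 1.3e-11). ATP6V1B2, the widely expressed B subunit, fell by less (log2 −0.19, SE 0.058, edgeR adjusted p = 0.00549) and did not pass without the 6 libraries (−0.24, edgeR adjusted p = 0.0546). In the V0 sector, ATP6V0D1 had 56.4 ± 0.634 CPM in untreated monolayers and 40.2 ± 2.71 in untreated aggregates (log2 −0.49, SE 0.064, edgeR adjusted p = 3.85e-08), and primed and treated aggregates were below treated ones (log2 −0.33, SE 0.064, edgeR adjusted p = 0.0006). ATP6V0E1 rose in 3D (log2 0.30, SE 0.062, edgeR adjusted p = 7.05e-05).

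Among the transcription factors, TFEB (Entrez 7942, chromosome 6, 41683978 to 41736223) changed in 2 of the 9 comparisons between pairs of groups. It was at 6.85, 5.46 and 7.95 CPM in untreated, 7.96, 7.58 and 9.46 in acutely exposed and 14.1, 13.7 and 11.3 in primed monolayers. In aggregates it was at 5.99, 6.13 and 6.78 untreated, 6.39, 6.39 and 6.01 primed, 6.28, 6.69 and 7 treated and 7.27, 5.67 and 5.6 primed and treated. All 3 primed monolayers were above the other 18 libraries, which ranged from 5.46 to 9.46 CPM. The level in primed monolayers was 1.94 times that of untreated ones (log2 0.95, SE 0.14, edgeR adjusted p = 2.27e-07), and primed and treated aggregates were below primed monolayers (log2 −1.08, SE 0.14, edgeR adjusted p = 1.74e-08). Between untreated aggregates and untreated monolayers the change was −0.094 (edgeR adjusted p = 0.59), and with acute exposure 0.31 (edgeR adjusted p = 0.109). TFE3 (Entrez 7030, chromosome X, 49028726 to 49043357), its close relative, had 45.5, 44.7 and 51.1 CPM in untreated, 47.9, 44.9 and 47.4 in acutely exposed and 50.3, 51.1 and 45.5 in primed monolayers. Aggregates had 40.5, 41 and 37.9 untreated, 34.7, 40.1 and 40.1 primed, 40.2, 39.3 and 41.9 treated and 38.1, 40.4 and 38.7 primed and treated. The monolayer groups overlapped one another, the aggregate groups did as well, and every monolayer library was above every aggregate library. It fell in 3D (log2 −0.24, SE 0.068, edgeR adjusted p = 0.00243), and primed and treated aggregates were below primed monolayers (log2 −0.33, SE 0.068, edgeR adjusted p = 8.98e-05). TFEC had 0 to 14 counts per library and group means of 0.017 to 0.437 CPM.

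Of 6 members that act in autophagy initiation and nucleation, 4 fell and 0 rose in 3D, where 31.1% of all genes fell and 32.9% rose. Without the 6 libraries with MYH7 the falls of ULK1 and WIPI1 remained. ULK1 (Entrez 8408, chromosome 12, 131894622 to 131923150), the kinase that starts autophagosome formation, was at 105, 103 and 116 CPM in untreated, 121, 112 and 112 in acutely exposed and 98.2, 95.8 and 83.9 in primed monolayers. Aggregates had 94.4, 81.5 and 70.4 untreated, 98.1, 106 and 107 primed, 115, 116 and 118 treated and 105, 102 and 101 primed and treated. Untreated aggregates varied most and still lay below all other aggregates, of which the treated were highest. ULK1 fell in 3D (log2 −0.39, SE 0.072, edgeR adjusted p = 1.89e-05), rose with priming in aggregates (log2 0.34, SE 0.073, edgeR adjusted p = 0.000919) and was higher in treated than in untreated aggregates (log2 0.50, SE 0.072, edgeR adjusted p = 1.67e-06). Primed monolayers were lower than untreated ones (log2 −0.22, SE 0.072, edgeR adjusted p = 0.00875), a call that ended without untreated monolayer 3 (−0.16, edgeR adjusted p = 0.0671) or primed monolayer 3 (−0.15, edgeR adjusted p = 0.0857).

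WIPI1 (Entrez 55062, chromosome 17, 68421281 to 68457496), which binds the lipid PI3P on the forming membrane and is itself a TFEB target, was at 129, 129 and 134 CPM in untreated, 149, 155 and 149 in acutely exposed and 140.3, 144 and 133 in primed monolayers. In aggregates it was at 111, 109 and 112 untreated, 111, 124 and 125 primed, 99.9, 103 and 96.4 treated and 78.4, 82.2 and 79 primed and treated. The 3 primed and treated aggregates were below all other 18 libraries. They were lower than treated (log2 −0.32, SE 0.051, edgeR adjusted p = 5.82e-05), primed (log2 −0.59, SE 0.051, edgeR adjusted p = 1.41e-10) and untreated aggregates (log2 −0.47, SE 0.052, edgeR adjusted p = 9.54e-09) in every alternative tried. WIPI1 also fell in 3D (log2 −0.24, SE 0.051, edgeR adjusted p = 8.79e-05). Its lower level in treated than in untreated aggregates (log2 −0.15, SE 0.051, edgeR adjusted p = 0.0233) ended without treated aggregate 3 (−0.12, edgeR adjusted p = 0.107). This call also ended without the 6 libraries with MYH7. The sulfatase gene ARSG on the opposite strand overlaps 24.3% of its exon bases.

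WIPI2, the relative that recruits ATG16L1, was at 93.5 ± 0.755 CPM in untreated monolayers and did not pass in 3D (0.057, edgeR adjusted p = 0.333), while treated aggregates had 123 ± 3.99 CPM against 97.3 ± 4.76 untreated (log2 0.33, SE 0.05, edgeR adjusted p = 2.48e-06). Primed and treated aggregates did not differ detectably from treated ones in it (−0.026, edgeR adjusted p = 0.827). BECN1, a core subunit of the class III PI3-kinase, and UVRAG, its partner in late steps, fell in 3D by small amounts (−0.17 and −0.28), and BECN1 lost the call without untreated aggregate 2 (−0.11, edgeR adjusted p = 0.174). Without the 6 libraries with MYH7 neither passed, with −0.10, edgeR adjusted p = 0.503 for BECN1 and −0.28, edgeR adjusted p = 0.0815 for UVRAG. UVRAG was lower in primed monolayers (log2 −0.40, SE 0.071, edgeR adjusted p = 8.45e-06). ATG9A, the membrane-supplying scramblase, passed with acute exposure alone (log2 0.15, SE 0.054, edgeR adjusted p = 0.0485), a call that ended without any 1 of 5 of the 6 libraries (edgeR adjusted p up to 0.294).

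In the conjugation system and ATG8 family, GABARAPL1 and ATG16L1 changed in the most comparisons. GABARAPL1 (Entrez 23710, chromosome 12, 10212877 to 10223128), an ATG8 protein, was at 95.4, 90.2 and 91.2 CPM in untreated, 94.2, 97.9 and 92.6 in acutely exposed and 62.7, 61.4 and 58.9 in primed monolayers. Aggregates had 56.7, 54.3 and 53.5 untreated, 66.2, 73.7 and 71.9 primed, 70.9, 68.2 and 68.5 treated and 77.1, 74.9 and 77.4 primed and treated. Untreated and acutely exposed monolayers were above all other libraries, untreated aggregates were below all others, and the remaining groups lay between. It fell in 3D (log2 −0.75, SE 0.054, edgeR adjusted p = 2.59e-14) and in primed monolayers (log2 −0.60, SE 0.054, edgeR adjusted p = 9.33e-12), and it was higher in primed (log2 0.37, SE 0.055, edgeR adjusted p = 6.88e-06) and in treated aggregates (log2 0.34, SE 0.054, edgeR adjusted p = 7.04e-06) than in untreated ones. These 4 calls held in every alternative tried.

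ATG16L1 (Entrez 55054, chromosome 2, 233251673 to 233295669), the scaffold that places the conjugation complex on the membrane, was at 45.9, 46.7 and 47.9 CPM in untreated, 57, 54.9 and 52.8 in acutely exposed and 47.5, 43.1 and 46.4 in primed monolayers. In aggregates it was at 66, 69.3 and 70 untreated, 73.5, 70.6 and 66.9 primed, 56.6, 57.9 and 57.3 treated and 52.7, 51.6 and 53.3 primed and treated. Untreated and primed aggregates overlapped and were above all other libraries, and the other aggregate groups did not overlap with them. It rose in 3D (log2 0.55, SE 0.056, edgeR adjusted p = 1.87e-10) and was lower in treated (log2 −0.26, SE 0.055, edgeR adjusted p = 0.000349) and in primed and treated aggregates (log2 −0.38, SE 0.055, edgeR adjusted p = 1.38e-06) than in untreated ones. ATG16L1 and WIPI1 were the 2 members lower in primed and treated than in untreated aggregates.

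Of the other conjugation genes, ATG7, the E1-like enzyme, rose from 29.5 ± 0.415 CPM in untreated monolayers to 45.5 ± 0.703 in untreated aggregates (log2 0.63, SE 0.072, edgeR adjusted p = 2.61e-09), with 18.1% of its exon bases shared with VGLL4 on the opposite strand. ATG5, the conjugate partner of ATG12, fell in the same comparison, from 62.3 ± 4.32 to 47.1 ± 5.76 CPM (log2 −0.40, SE 0.074, edgeR adjusted p = 1.27e-05), and was lowest in primed monolayers at 41.6 ± 3.03 (log2 −0.58, SE 0.075, edgeR adjusted p = 2.96e-08). Its fall in 3D ended without the 6 libraries with MYH7 (−0.12, edgeR adjusted p = 0.438). MAP1LC3B, the LC3 protein most used as an autophagosome marker, had group means of 29.8 to 39.8 CPM, and it did not pass in 3D (0.10, edgeR adjusted p = 0.224). It was lower in primed than in untreated monolayers (log2 −0.23, SE 0.072, edgeR adjusted p = 0.00613), a call that ended without untreated monolayer 2 (−0.16, edgeR adjusted p = 0.075). This call also ended without the 6 libraries with MYH7. MAP1LC3B2, a near-identical copy of MAP1LC3B, was listed at group means of 6.7 to 8.86 CPM, so the split of reads between them is uncertain. GABARAPL2, another ATG8 protein, was highest in primed and treated aggregates at 35.7 ± 0.866 CPM against 28.7 ± 2.92 in untreated ones (log2 0.32, SE 0.078, edgeR adjusted p = 0.00163), and this call ended without the 6 libraries (0.17, edgeR adjusted p = 0.277).

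SQSTM1 (Entrez 8878, chromosome 5, 179806393 to 179838078), the p62 receptor that binds ubiquitinated cargo and is degraded with it, was at 504, 486 and 508 CPM in untreated, 568, 615 and 609.7 in acutely exposed and 611, 564 and 549 in primed monolayers. Aggregates had 815, 782 and 754 untreated, 628, 646 and 695 primed, 807, 832 and 756 treated and 858, 791 and 767 primed and treated. All aggregate libraries were above all monolayer libraries, and primed aggregates were below the other 3 aggregate groups, which overlapped one another. SQSTM1 rose in 3D (log2 0.65, SE 0.054, edgeR adjusted p = 1.41e-12) and with acute exposure (log2 0.26, SE 0.054, edgeR adjusted p = 0.000551), fell with priming in aggregates (log2 −0.26, SE 0.054, edgeR adjusted p = 0.0007) and was higher in primed and treated than in primed aggregates (log2 0.29, SE 0.054, edgeR adjusted p = 7.45e-05). Treated and untreated aggregates did not differ detectably (0.027, edgeR adjusted p = 0.733). Without the 6 libraries with MYH7 the fall with priming (−0.20, edgeR adjusted p = 0.0819) and the rise with acute exposure (0.16, edgeR adjusted p = 0.422) ended. MRNIP on the opposite strand overlaps 20.7% of its exon bases.

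The design also asks whether early priming has the same effect with and without the late dose. Each response lies within 1 set of libraries. Their difference, primed and treated minus treated less primed minus untreated aggregates, was tested as 1 contrast and spans both sets. Late dose, set and the added 24 h of age therefore cannot be told apart for the difference. In this contrast 2 members were called higher and 11 lower, where 5.05% of all genes were called higher and 7.42% lower (median −0.0595 against 0.00162). CTSA had the largest difference. Its priming response was 0.31 without the late dose and −0.31 with it (log2 −0.62, SE 0.073, edgeR adjusted p = 2.65e-07). GRN went from 0.46 to −0.12 (log2 −0.58, SE 0.091, edgeR adjusted p = 3.49e-05), and ULK1 from 0.34 to −0.18 (log2 −0.52, SE 0.10, edgeR adjusted p = 0.000585). For WIPI1 the responses were 0.12 and −0.32 (log2 −0.44, SE 0.072, edgeR adjusted p = 4.88e-05), for ATP6AP1 0.17 and −0.17 (log2 −0.34, SE 0.071, edgeR adjusted p = 0.00101), and for TPP1 0.32 and 0.0099 (log2 −0.31, SE 0.066, edgeR adjusted p = 0.00124). These 6 calls held in every alternative tried. The other 7, in GAA, HEXA, LAMP1, CD63, SCARB2, GABARAPL1 and SQSTM1, ended without the 6 libraries with MYH7. SQSTM1 and GAA were the 2 called higher. The SQSTM1 difference (0.27) also ended without treated aggregate 3 (0.23, edgeR adjusted p = 0.0612) or primed and treated aggregate 1 (0.23, edgeR adjusted p = 0.0647), and that of GAA (0.25) without any 1 of 7 of the 12 libraries (edgeR adjusted p up to 0.119). SCARB2 and GABARAPL1 each lost the call without any 1 of 10 of the 12 libraries.

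**Figure D5:**
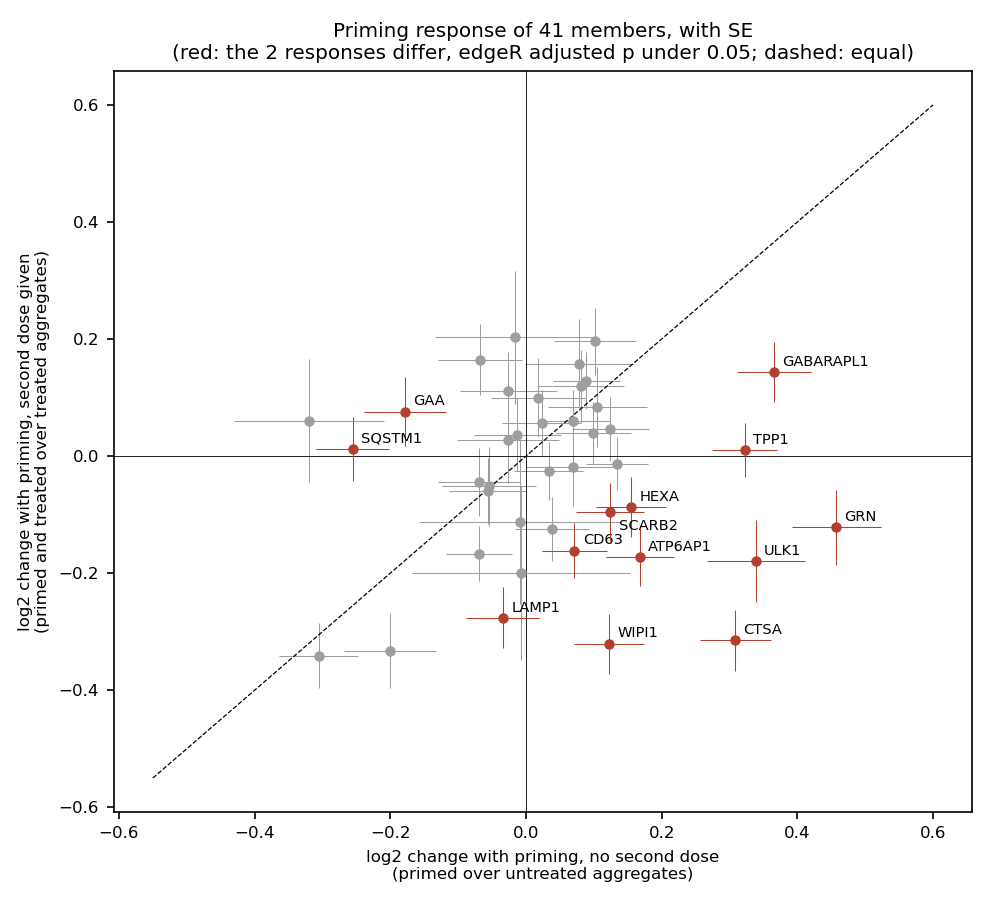
Priming response of the 41 tested members without the late dose (x axis, log2 primed over untreated aggregates) and with it (y axis, log2 primed and treated over treated aggregates), with SE bars and the line of equality dashed. The 13 genes whose responses differ are red and named; 11 lie below the line, CTSA (0.31 and −0.31) and GRN (0.46 and −0.12) furthest.

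The rest of the pathway was read from a list of 163 other lysosomal and autophagy genes in the table, of which 162 were tested. Of these 49 rose and 75 fell in 3D, where 32.9% of all genes rose and 31.1% fell, with 10 of 14 sorting genes and 9 of 13 other proton pump subunits among the falls. Fewer of these genes, and of all genes, passed without the 6 libraries with MYH7, with 1 library left on each side. MAP1LC3A, an LC3 paralog, rose from 9.18 ± 0.515 to 51.4 ± 8.4 CPM (log2 2.48, SE 0.12, edgeR adjusted p = 8.44e-17). The iduronidase IDUA fell from a low level, 1.06 ± 0.157 CPM, to 0.35 ± 0.15, and did not pass without the 6 libraries with MYH7 (edgeR adjusted p = 0.0599). With acute exposure 28 rose and 16 fell (11.3% and 8.91% of all genes). Without the 6 libraries with MYH7, fewer passed in these genes and among all genes, with 1 library on each side. The calls were led by the kinase DAPK1 (1.13), the pump subunit ATP6V1C2 (0.71), the LC3 protease ATG4A (−0.52) and the scramblase TMEM41B (−0.32), which did not pass without those 6. In primed monolayers 49 were higher and 72 lower (33.7% and 31.6% of all genes). Fewer passed without those 6, here and among all genes, with 1 untreated monolayer library left. The pump subunit ATP6V1B1 (1.71) and the galactosylceramidase GALC (1.64) were highest, and IDUA and the cathepsin CTSK, at 0.197 ± 0.116 and 0.532 ± 0.376 CPM against 1.06 ± 0.157 and 1.49 ± 0.177, lowest.

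Within aggregates, priming raised 31 of the 162 and lowered 23 (11.5% and 9.66% of all genes). Without the 6 libraries, rises were fewer here and among all genes. The calls were led by the reticulophagy receptor RETREG1 (0.65), the lipid transfer protein ATG2A (0.48), the pump subunit ATP6V0E2 (−0.49) and the sulfatase ARSB (−0.41), of which RETREG1 and ARSB did not pass without the 6. Treated aggregates had 51 higher and 31 lower (18.8% and 17.9% of all genes). Among them were GALC (1.22), RETREG1 (1.13), the TFEB relative MITF (−0.51) and the glycogen receptor STBD1 (−0.50). Without the 6, MITF (−0.26) and STBD1 did not pass, and rises were fewer here and among all genes. RETREG1 was at 2.73 ± 0.052 CPM in untreated aggregates, 4.31 ± 0.424 in primed, 5.99 ± 0.579 in treated and 8.69 ± 1.42 in primed and treated ones. Primed and treated aggregates had 49 higher and 30 lower than untreated ones (17.6% and 17.9% of all genes). Rises were again fewer without the 6, here and among all genes. The calls included ATP6V1C2 (1.15), MITF (−1.24) and the stress protein SESN3 (−0.64). Against treated ones 7 were higher and 13 lower (3.18% and 4.8% of all genes), including the GTPase RRAGD (0.41), the cathepsin CTSV (−0.75) and MITF (−0.73). Against primed ones 31 were higher and 15 lower (14.9% and 14.8% of all genes), including ATP6V1C2 (0.86), MITF (−1.38) and MAP1LC3A (−0.65). Melanocytes also express MITF, and the melanocyte markers differed between the sets of libraries as given above and overlapped between the 2 treated groups. MITF averaged 11.1 CPM in primed monolayers (summed melanocyte markers 1.77 to 3.15 CPM). It averaged 8.67 CPM in primed aggregates (59.2 to 99.5) and 3.32 in primed and treated ones (3.68 to 4.53). The part of melanocyte transcripts in its changes was not tested. Against primed monolayers, primed and treated aggregates had 63 higher and 51 lower (31.9% and 32.1% of all genes), including RRAGD (2.18), MITF (−1.73) and ARSB (−1.38). The priming response differed in 26 of the 162, 9 higher and 17 lower (5.05% and 7.42% of all genes), including RRAGD (0.82), the mitophagy receptor BNIP3 (0.66), MITF (−0.88) and the sphingomyelinase SMPD1 (−0.83).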

How the data were processed

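Total RNA libraries of 21 AU565 samples were analysed as 7 groups of 3, per the labels. The deposited file holds raw counts per gene. The submitters' processing notes name featureCounts, limma and the build hg38. The aligner, annotation and strand setting are not given in the sources used here. The columns of the primed aggregates carry a word their titles lack and were matched to those samples by elimination. The 42 members, the lists of other pathway genes and the markers were chosen with earlier results of these data known, so they are no independent support for a direction.

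Counts were tested in edgeR 4.0.16 (R 4.3.3) with TMM, filterByExpr and robust quasi-likelihood fits to all 7 groups, two-sided, with Benjamini-Hochberg adjustment over 15969 genes in each of 9 pairwise comparisons and 1 difference of responses. The filter took out 584 genes, which held 0.0116% of counts. The biological coefficient of variation was 5.98%, and the steps were tested on simulated data. Every member with a row is named. Those given by replicate are the 2 per role (1 where the role holds 1) with the most comparisons called, then the largest change. Other pathway genes named are the 2 largest called rises and falls per comparison among genes whose mean reached 1 CPM in a group of that comparison. Some genes that this rule picks are not reported here. Alternatives were DESeq2 1.42.0, limma 3.58.1 (voom), RLE size factors, no filter, a mean of 10 CPM, only the groups compared, a replicate block and leaving out each library, and, added after the data were seen, leaving out the 6 libraries with MYH7 above 10 CPM. Promoters came from RefSeq and exon overlaps from GENCODE 29. Same-numbered untreated aggregates and monolayers deviated together over all genes (correlations 0.124, 0.247 and 0.316), which is read from the data, as the labels name no pairing. In no other comparison were all 3 over 0.1.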

Additional observations from a re-analysis of the deposited data

Results flagged for a closer look

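In 13 members the response to priming differed between treated and untreated aggregates by the test of the difference itself (edgeR, adjusted over all genes; each aggregate group has n = 3). The difference, as log2, was −0.62 for CTSA, −0.58 for GRN, −0.52 for ULK1, −0.44 for WIPI1, −0.34 for ATP6AP1, −0.31 for TPP1, −0.24 for HEXA, −0.24 for LAMP1, −0.23 for CD63, −0.22 for SCARB2 and −0.22 for GABARAPL1. It was 0.27 for SQSTM1 and 0.25 for GAA. These are 2 members higher and 11 lower, where 5.05% of all genes were higher and 7.42% lower. The differences of GAA, HEXA, LAMP1, CD63, SCARB2, GABARAPL1 and SQSTM1 did not pass without the 6 libraries with MYH7. CTSA moved in opposite directions in the 2 settings, and both responses passed. TPP1, GRN, HEXA, ULK1 and GABARAPL1 rose with priming alone and did not pass with the late dose. The HEXA rise (0.16) ended without any 1 of 5 of the 6 libraries compared (edgeR adjusted p up to 0.146). It also ended without the 6 libraries with MYH7. LAMP1, CD63 and WIPI1 passed with the late dose alone. ATP6AP1 also passed in both with opposite signs. SCARB2 passed in neither response. For the difference, late dose, set of libraries and age cannot be told apart.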

How the results depend on the processing

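No call of a member reversed under any alternative. DESeq2, limma voom, RLE size factors, no filter and a mean of 10 CPM kept every count of members within 1.5 times. With the replicate number as a block, 13 members rose and 19 fell in 3D, TPP1 losing its call (−0.11, edgeR adjusted p = 0.05003). The block also ended the calls of ATG9A with acute exposure (0.15, edgeR adjusted p = 0.05041) and GABARAPL1 in the priming difference (−0.22, edgeR adjusted p = 0.05596), and no others. Fitting only the groups compared gave 5 rises and 2 falls with priming in aggregates and 3 members higher in primed and treated than in treated aggregates. Without the 6 libraries with MYH7, fewer members were called with acute exposure, with priming in aggregates and in the priming difference. Fewer rises were called in primed monolayers and in primed and treated against untreated aggregates. Shares of all genes called were smaller in these comparisons too. The cause was not tested, and fewer libraries enter that fit, with 1 left in each of the groups they came from.

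Leaving out 1 library at a time gave these ranges. Acute falls were 3 to 5 and acute rises 9 to 14, with 3 falls without untreated monolayer 1 or acutely exposed monolayer 3. Rises with priming in aggregates were 5 to 9 (5 without untreated aggregate 2 or primed aggregate 2) and falls 2 to 4 (2 without untreated aggregate 1 or primed aggregate 3, 3 without primed aggregate 2). Falls in treated aggregates were 2 to 5 (5 without untreated aggregate 1), in primed and treated against untreated aggregates 2 to 4 (4 without untreated aggregate 2) and against primed ones 3 to 5 (3 without primed aggregate 2). Against treated aggregates, rises were 0 to 1, with 0 without treated aggregates 1 or 3 or any primed and treated aggregate and 4 to 6 at an unadjusted p under 0.05, and falls were 5 to 6 (5 without treated aggregate 1). In the priming difference, falls were 7 to 10, with 7 without untreated aggregate 2, primed aggregate 2, treated aggregate 1 or primed and treated aggregates 2 or 3. Its rises were 0 to 3, with 0 without treated aggregate 3 or primed and treated aggregate 1 (4 each at an unadjusted p under 0.05) and 1 without primed aggregate 3, treated aggregate 1 or primed and treated aggregate 2. The ranges for the other counts lay within 1.5 times of their values.

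TFEC had too few counts to be tested. TFEB, NEU1, MCOLN1 and GLA were among the members with the lowest levels, and the effect of depth on the calls was not tested.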
